A study of Homo sapiens with 6 samples.

Results

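The genes described here are 10 regulators of the G1 phase of the cell cycle, chosen by symbol among the 23368 genes of the deposited counts table: the CDK inhibitors CDKN1A, CDKN1B, CDKN2C and CDKN2D, the CDK phosphatase CDKN3, the D-type cyclins CCND1, CCND2 and CCND3, and the E-type cyclins CCNE1 and CCNE2. All 10 were in the table, and 9 of them were abundant enough to be tested, CCND2 being the exception. RNA was sequenced from H2122, a human lung adenocarcinoma cell line, 48 hours after transfection with LYCAT shRNA (3 libraries) or with a control shRNA (3 libraries). LYCAT is an older name of LCLAT1, an acyltransferase that remodels phospholipids. The series title speaks of a knockout while the treatment is an shRNA, and the shRNA sequences are not given in the sources used here. Nothing in the labels ties the 3 libraries of a group to separate cultures, and the p-values below therefore cover variation among libraries that could be purely technical.

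Passage through G1 depends on cyclin-dependent kinases (CDKs) that are active only when bound to a cyclin. D-type cyclins bind CDK4 and CDK6, which start the phosphorylation of the retinoblastoma protein RB, and E-type cyclins bind CDK2, which completes it and so frees the E2F factors that switch on genes of S phase. INK4 inhibitors such as CDKN2C and CDKN2D bind CDK4 and CDK6, whereas CIP/KIP inhibitors such as CDKN1A and CDKN1B bind cyclin-CDK complexes.

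With LYCAT shRNA, LCLAT1 stood at 18.9, 22.6 and 23.6 CPM (counts scaled to library size), against 56.8, 61.2 and 65.3 CPM with control shRNA, a log2 difference of -1.50 (SE 0.114; adjusted p = 1.15e-18 by the quasi-likelihood test of edgeR). An exact permutation test (two-sided) gave p = 0.1, the lowest possible with 3 libraries a group. The libraries held 3118946 to 4730453 counts with LYCAT shRNA and 4075367 to 4930079 with control shRNA, so that 3 counts correspond to 0.608 to 0.967 CPM. Epithelial markers were present as the cell line's label implies, EPCAM averaging 624 CPM with LYCAT shRNA and 644 CPM with control shRNA, and only MUC1 of the 7 markers was too low to test. Of the other 6, KRT7, KRT8 and KRT18 were lower with LYCAT shRNA, as was CDH1, named after its value was seen. Without control libraries 1 and 2, described next, 1 of the 6 was lower, and KRT8 (edgeR adjusted p = 0.0845) and KRT18 (0.365) did not pass. The 7 markers summed to 1433 to 1500 CPM with LYCAT shRNA, against 1609 to 1699 CPM with control shRNA; their part in the results below was not tested. Control shRNA libraries 1 and 2 stood apart in fibronectin and collagen: FN1 was at 31.7, 8.71 and 20.3 CPM in LYCAT shRNA libraries 1 to 3, against 92.6, 162 and 19.7 CPM in control shRNA libraries 1 to 3. COL1A1 was at 25.9, 16.4 and 22.9 CPM with LYCAT shRNA, against 59.4, 82.7 and 28.3 CPM with control shRNA. Where a member's call was lost without those libraries, the value without them is given.

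Of the 9 tested members, 4 were higher with LYCAT shRNA (CDKN1A, CCNE1, CDKN3 and CCND1), 1 was lower (CDKN1B) and 4 did not pass (CDKN2C, CDKN2D, CCND3 and CCNE2) at an adjusted p under 0.05. Of all 11097 tested genes, 9.81% were called higher and 9.26% lower. The median log2 fold change was 0.13 over the 9 members and -0.0057 over all tested genes. For 6 of the 9 members no LYCAT shRNA library overlapped the control shRNA libraries, as for 32.8% of all tested genes. DESeq2 called 2 members higher, CDKN1A and CCNE1, and 0 lower, with 5.72% of all genes called higher and 5.03% lower. Limma-voom called the same 2 higher and CDKN1B lower, with 9.25% of all genes higher and 8.64% lower. At an unadjusted p under 0.05, edgeR listed 6 members and 3415 of all genes. The number called was sensitive to single libraries. Without LYCAT shRNA replicate 2, LYCAT shRNA replicate 3 or control shRNA replicate 1, 2 members were higher, and the count over all genes was lower too, at 865, 765 and 844 genes higher, against 1089 with all libraries. Without LYCAT shRNA replicate 1, LYCAT shRNA replicate 3 or control shRNA replicate 1, 0 were lower, and without control shRNA replicate 3, 2 were, CDKN1B and CCND2. CCND2 passed the filter on low counts there only through control shRNA libraries 1 and 2. Over all genes these fits called 706, 700, 763 and 828 lower, in that order, against 1028 with all libraries. Without control libraries 1 and 2 together, 1 member was higher, CDKN1A, and 0 were lower, with 573 of all genes higher and 556 lower.

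**Figure D1:**
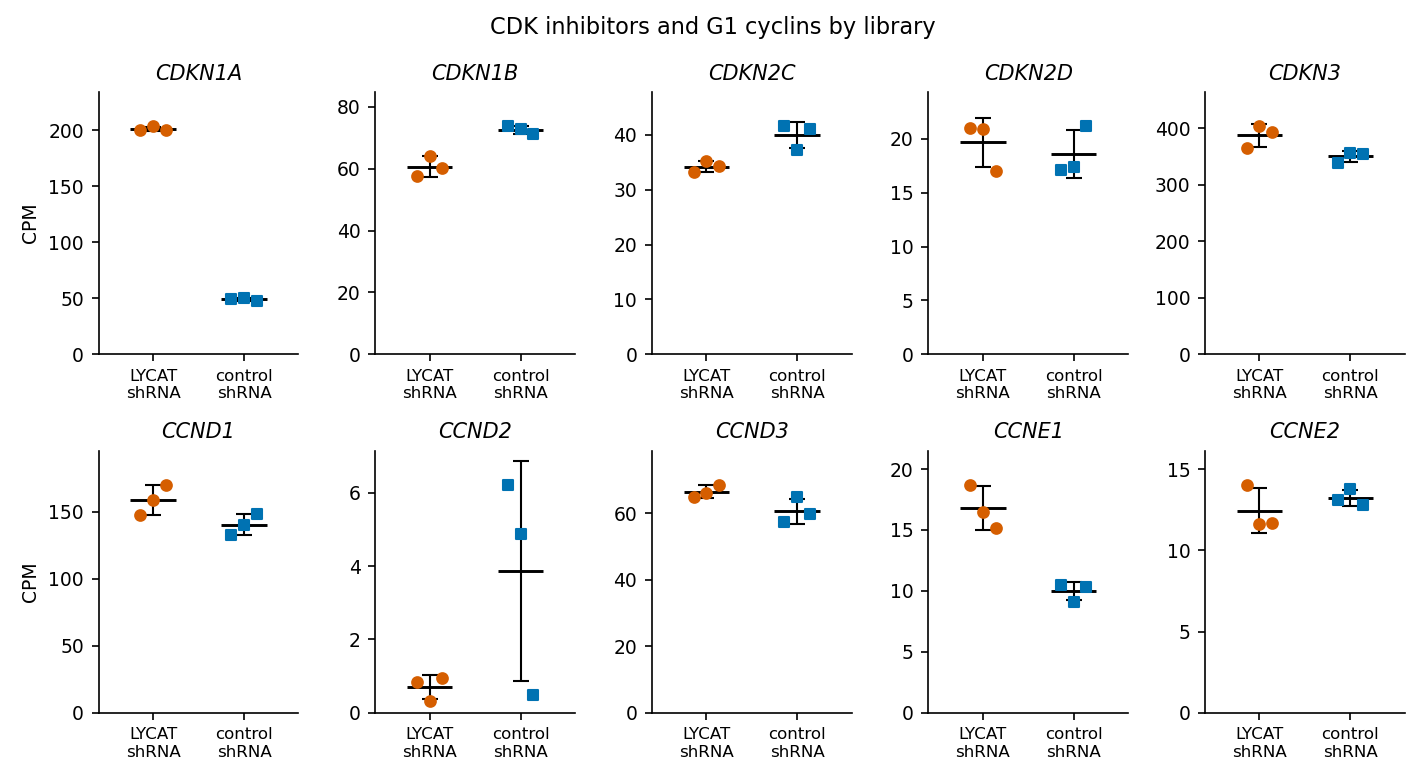
CPM of each member in every library (y axis, linear from 0, own scale per panel; points are libraries, the horizontal bar is the mean and the whiskers the SD, n = 3 a group). CDKN1A stood between 199.7 and 203.5 CPM in the LYCAT shRNA libraries and between 47.8 and 50.5 CPM in the control shRNA libraries, and CCND2 was above 4 CPM in only 2 of the control shRNA libraries.

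The upstream sequence of the 4 members that passed the test and have an entry in the RefSeq promoter table is shown, since these genes carry the differences described below. Each is the 250 bases before the annotated start, 5′ to 3′ on the gene's strand, in build GRCh38.p14; capitals mark matches to motifs named after the sequences. These coordinates belong to the RefSeq table and not to the counts, for which the submitters' notes name other builds.
CDKN1A (chr6:36678464-36678713, + strand): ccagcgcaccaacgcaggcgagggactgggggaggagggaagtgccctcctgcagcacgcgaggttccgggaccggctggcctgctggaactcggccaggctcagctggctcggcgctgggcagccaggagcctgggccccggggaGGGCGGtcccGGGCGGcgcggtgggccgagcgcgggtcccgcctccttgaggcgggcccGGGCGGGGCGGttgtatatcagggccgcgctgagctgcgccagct
CDKN1B (chr12:12717118-12717367, + strand): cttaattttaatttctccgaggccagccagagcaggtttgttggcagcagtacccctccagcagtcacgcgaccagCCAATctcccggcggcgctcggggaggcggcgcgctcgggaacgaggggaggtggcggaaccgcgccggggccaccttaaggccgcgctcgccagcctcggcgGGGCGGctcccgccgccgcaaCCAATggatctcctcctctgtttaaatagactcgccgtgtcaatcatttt
CDKN3 (chr14:54396757-54397006, + strand): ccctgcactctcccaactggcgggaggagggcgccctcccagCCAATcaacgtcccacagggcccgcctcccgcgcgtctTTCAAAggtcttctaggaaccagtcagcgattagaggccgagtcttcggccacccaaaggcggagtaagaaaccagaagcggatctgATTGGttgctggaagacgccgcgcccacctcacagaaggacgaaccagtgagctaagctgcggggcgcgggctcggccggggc
CCNE1 (chr19:29811741-29811990, + strand): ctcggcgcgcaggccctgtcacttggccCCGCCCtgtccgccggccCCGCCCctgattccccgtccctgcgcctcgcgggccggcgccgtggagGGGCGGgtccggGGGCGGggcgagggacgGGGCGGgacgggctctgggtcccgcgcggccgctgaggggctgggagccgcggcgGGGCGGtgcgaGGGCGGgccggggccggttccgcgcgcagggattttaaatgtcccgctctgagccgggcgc

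Both strands were searched for the GC box GGGCGG, which SP1 binds, the CCAAT box CCAAT, which NF-Y binds, the CHR element TTTGAA of many mitotic genes, the TATA box TATAAA, the E box CACGTG, and the E2F site in 4 spellings, TTTCCCGC, TTTCGCGC, TTTGCCGC and TTTGGCGC. CDKN1A held 4 GC boxes, of which 2 share a base, and CCNE1 held 7, and neither held any of the other motifs. CDKN1B held 1 GC box and 2 CCAAT boxes. CDKN3 held 2 CCAAT boxes and 1 CHR element. Of 35116 human promoter windows of the same length, 42.6% held a GC box, 32% a CCAAT box, 13.3% a CHR element, 10.7% a TATA box, 6.34% the E box and 2.79% an E2F site in these spellings. A match describes the letters of the window only. The table held 7 of the 10 members, in 11 windows, and CCND1, CCND2 and CCNE2 are not shown. Window 2 of CDKN2C and window 3 of CCND3, genes that did not pass, each held 5 GC boxes and none of the other motifs.

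**Figure D2:**
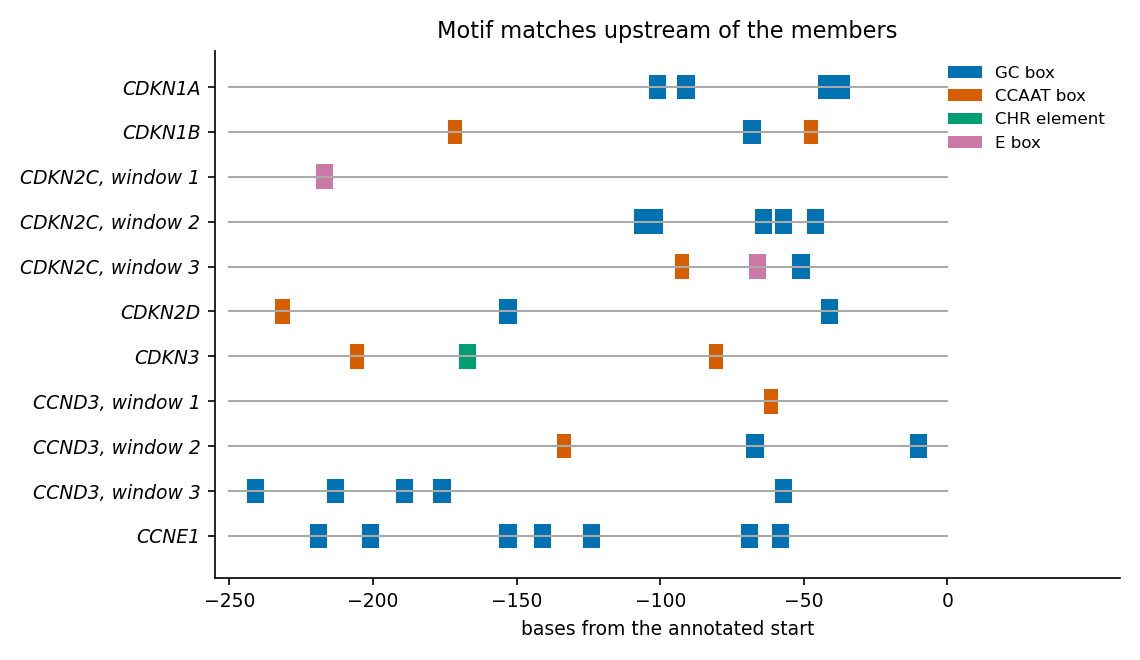
Motif matches in the 250 bases before each annotated start (x axis, bases from the start at 0; one line per RefSeq window, 3 windows each for CDKN2C and CCND3). Coloured boxes are matches on either strand. GC boxes are the only matches in the CDKN1A and CCNE1 windows, in window 2 of CDKN2C and in window 3 of CCND3.

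CDKN1A, which encodes p21, an inhibitor of CDK2 complexes, had 199.9, 203.5 and 199.7 CPM in the LYCAT shRNA libraries, against 49.5, 50.5 and 47.8 CPM in the control shRNA libraries. Every LYCAT shRNA library was far above every control shRNA library. The coefficient of variation (SD as a percent of the mean) was 1.07% with LYCAT shRNA and 2.77% with control shRNA. The libraries held 631 to 940 counts of the gene with LYCAT shRNA and 194 to 249 with control shRNA. Random sampling of that many reads alone gives a larger spread, so these percentages do not measure precision. The mean was 201 ± 2.15 CPM with LYCAT shRNA and 49.3 ± 1.36 CPM with control shRNA (SD, n = 3 each). The log2 fold change of 2.03 (SE 0.0733, edgeR adjusted p = 8.08e-38) corresponds to 4.07-fold with a 95% interval of 3.68 to 4.51. By p-value CDKN1A ranked number 5 of the 11097 tested genes, and by fold change number 28. Its mean level lay at percentile 91.2 of tested genes with LYCAT shRNA and at percentile 62.6 with control shRNA. Leaving out any one library gave log2 values of 2.01 to 2.04.

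CDKN1B, which encodes p27, the other CIP/KIP inhibitor among the members, moved the other way. Its level was 57.6, 64.2 and 60.3 CPM with LYCAT shRNA, against 73.7, 72.8 and 71.2 CPM with control shRNA. The groups did not overlap, and the mean fell to 60.7 ± 3.3 CPM with LYCAT shRNA, against 72.6 ± 1.29 CPM with control shRNA (SD, n = 3 each; log2 -0.27, SE 0.0871, edgeR adjusted p = 0.0221). It did not pass with DESeq2 (adjusted p = 0.108), nor without LYCAT shRNA replicate 1 (edgeR adjusted p = 0.136), LYCAT shRNA replicate 3 (0.0779) or control shRNA replicate 1 (0.0649), nor without control libraries 1 and 2 together (0.212). Its sign was negative in all 15 alternatives.

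Levels of different genes were compared per kilobase of exon, using the union of protein-coding exons in GENCODE v29. Per kilobase, CDKN1A averaged 80.1 ± 0.856 CPM with LYCAT shRNA and 19.6 ± 0.544 with control shRNA, and CDKN1B averaged 22.8 ± 1.24 with LYCAT shRNA and 27.3 ± 0.487 with control shRNA (SD, n = 3 each). CDKN1A was thus 3.67, 3.36 and 3.51 times the level of CDKN1B per kilobase in the LYCAT shRNA libraries, against 0.711, 0.735 and 0.711 times in the control shRNA libraries. Of the summed level of this pair per kilobase, CDKN1A made up 77.8 ± 0.774% with LYCAT shRNA and 41.8 ± 0.457% with control shRNA. The sum itself was 103 ± 2.04 CPM with LYCAT shRNA and 46.9 ± 0.961 CPM with control shRNA. The order of the pair was therefore opposite in the 2 groups. CDKN1C, the third CIP/KIP gene and no member, was low, at 2.81 ± 0.83 CPM with LYCAT shRNA and 4.21 ± 1.63 CPM with control shRNA (edgeR adjusted p = 0.243).

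The INK4 genes did not pass. CDKN2C, which encodes p18, had 33.2, 35.2 and 34.3 CPM with LYCAT shRNA, against 41.6, 37.3 and 41.1 CPM with control shRNA. Every LYCAT shRNA library was below every control shRNA library, and the log2 fold change was -0.23 (SE 0.11, unadjusted p = 0.0435, edgeR adjusted p = 0.147), with a 95% interval of 0.734 to 0.995 for the ratio. CDKN2D, which encodes p19, had 21.1, 21.0 and 17.0 CPM with LYCAT shRNA, against 17.1, 17.4 and 21.2 CPM with control shRNA. The groups overlapped, and the interval of the ratio was 0.859 to 1.31 (log2 0.09, edgeR adjusted p = 0.757). Summed per kilobase the pair stood at 23.4 ± 1.52 CPM with LYCAT shRNA and 24.4 ± 1.87 CPM with control shRNA. CDKN2A and CDKN2B, the other INK4 loci, named after their values were seen, were at or near 0. CDKN2A had 0, 1 and 0 counts with LYCAT shRNA, against 1, 3 and 0 with control shRNA. CDKN2B had 0, 0 and 0 counts with LYCAT shRNA, against 2, 1 and 1 with control shRNA.

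CDKN3, which encodes a phosphatase that removes an activating phosphate from CDK2 and peaks late in the cell cycle, was the most abundant member per kilobase in both groups. Its level was 364, 403 and 393 CPM with LYCAT shRNA, against 339, 357 and 355 CPM with control shRNA. The groups did not overlap, but the difference was small, 1.10-fold with a 95% interval of 1.03 to 1.18 (log2 0.14, SE 0.0513, edgeR adjusted p = 0.0403). The call was lost with DESeq2 (adjusted p = 0.101), with limma-voom (0.0541), with library totals in place of TMM factors (edgeR adjusted p = 0.0627), and without LYCAT shRNA replicate 2 (0.189), LYCAT shRNA replicate 3 (0.14), control shRNA replicate 1 (0.149), control shRNA replicate 3 (0.0547) or control libraries 1 and 2 together (0.23).

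Among the D-type cyclins CCND1 was the most abundant, making up 70.4 ± 0.974% of their summed level per kilobase with LYCAT shRNA and 69.1 ± 2.01% with control shRNA. CCND1 had 147, 159 and 170.0 CPM with LYCAT shRNA, against 132, 140.0 and 148 CPM with control shRNA. The groups overlapped, since the lowest LYCAT shRNA library was below the highest control shRNA library. CCND1 passed narrowly (1.13-fold, 95% interval 1.03 to 1.24, log2 0.18, SE 0.0661, edgeR adjusted p = 0.0488). It did not pass in 11 of the 15 alternatives, among them DESeq2 (adjusted p = 0.164). The call was also lost on leaving out LYCAT shRNA replicate 2 (edgeR adjusted p = 0.104), LYCAT shRNA replicate 3 (0.306), control shRNA replicate 1 (0.211), control shRNA replicate 2 (0.0513) or control libraries 1 and 2 together (0.559). In GENCODE v29, 11.3% of its exon bases overlap those of LTO1 on the opposite strand, listed in the counts under the older name ORAOV1 with 249 counts in the LYCAT shRNA libraries and 223 in the control shRNA libraries. The sources used here do not say if strand was used in counting, so reads of this stretch cannot be told apart.

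CCND3 had 65.1, 66.1 and 68.7 CPM with LYCAT shRNA, against 57.4, 64.9 and 59.8 CPM with control shRNA. The groups did not overlap, by a small margin, and the gene did not pass (log2 0.13, SE 0.0888, edgeR adjusted p = 0.327; 95% interval of the ratio 0.969 to 1.24). CCND2 was low, with 4, 1 and 4 counts in the LYCAT shRNA libraries, against 29, 24 and 2 in the control shRNA libraries. These are 0.851, 0.322 and 0.934 CPM with LYCAT shRNA, against 6.22, 4.86 and 0.493 CPM with control shRNA. The higher values were those of control shRNA libraries 1 and 2, the same that were high in FN1 and COL1A1, while control shRNA library 3 lay within the range of the LYCAT shRNA libraries. In GENCODE v29, 14.8% of the exon bases of CCND2 are shared with a gene on the same strand, AC008012.1, for which no name was found in the counts.

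CCND2 did not pass the filter on low counts, which asks for a minimum level in 3 libraries. Without the filter it was called lower (log2 -2.37, SE 0.499, edgeR adjusted p = 6.1e-05, where 6.38% of 16183 genes were called lower and 6.77% higher). It was also called lower without control shRNA replicate 3 (edgeR adjusted p = 8.03e-06, where 7.33% of 11303 genes were lower and 7.93% higher). With 1 library left out the filter asks for a minimum level in 2 libraries, which CCND2 reached in control shRNA libraries 1 and 2 only. The gene was thus tested in such fits only because those libraries were high, and no conclusion is drawn from them. With any one LYCAT shRNA library left out it was not called (edgeR adjusted p = 0.0703 to 0.0759). The ratio of mean CPM was -2.46 on the log2 scale with all libraries and 0.51 without control libraries 1 and 2. The 14 markers of fibroblasts, endothelium and blood summed to 18.7 to 37.2 CPM in the LYCAT shRNA libraries, against 30.8 to 129 CPM in the control shRNA libraries. Of the 14, 3 were abundant enough to test and 0 of those passed with edgeR. At an unadjusted p under 0.05 edgeR listed 1 of the 3, and 3415 of all 11097 tested genes. DESeq2 called 1 of the 3, limma-voom 2, and edgeR 3 with robust=FALSE or without control shRNA replicate 3. Of the 14, 5 had 0 counts in every library, the endothelial and blood markers PECAM1, CDH5, PTPRC, CD3E and LYZ. The fibroblast markers COL1A1, given above, and COL1A2 had counts in every library. COL1A2 was at 5.53, 1.61 and 4.44 CPM with LYCAT shRNA, against 14.4, 23.9 and 0.985 CPM with control shRNA. The part of the 14 markers in the CCND2 values was not tested. In bulk RNA, fewer cells of a type and less RNA per cell cannot be told apart.

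**Figure D3:**
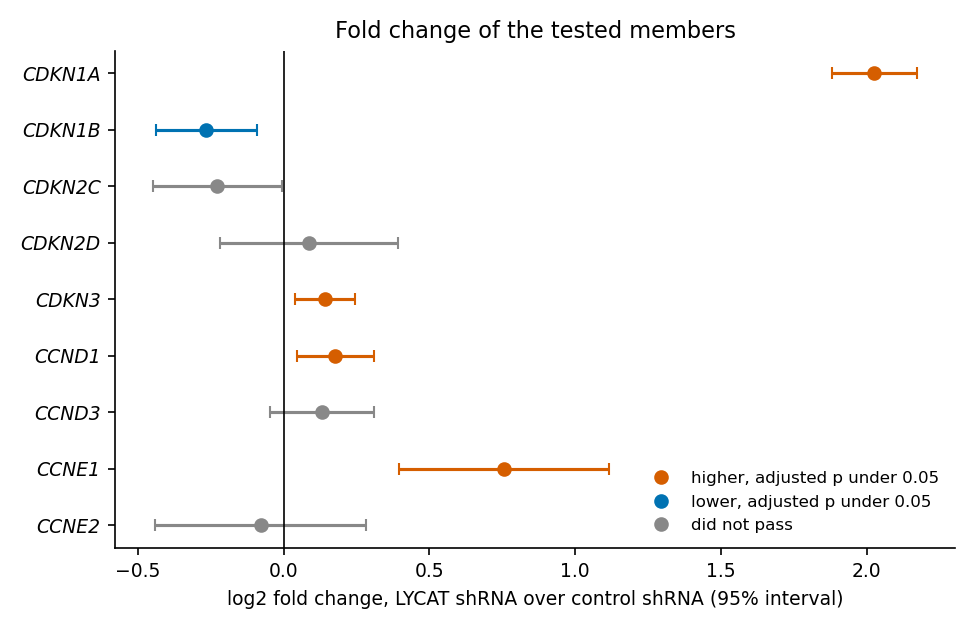
log2 fold change of the 9 tested members, LYCAT shRNA over control shRNA (x axis; points are edgeR estimates, bars the 95% interval, colours the call at an adjusted p under 0.05). CDKN1A at 2.03 and CCNE1 at 0.76 lie furthest from 0, and the intervals of CDKN2D, CCND3 and CCNE2 include 0.

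Of the E-type cyclins CCNE1 rose and CCNE2 did not pass; the difference between the 2 genes' changes was not tested. CCNE1 had 18.7, 16.4 and 15.2 CPM with LYCAT shRNA, against 10.5, 9.12 and 10.3 CPM with control shRNA. The groups did not overlap, and the gene rose 1.69-fold (log2 0.76, 95% interval 0.39 to 1.12, SE 0.181, edgeR adjusted p = 0.00119). It passed without any one library (edgeR adjusted p = 0.00277 to 0.0259) and did not pass without control libraries 1 and 2 together (0.0747), with a log2 fold change of 0.70. CCNE2 had 14.03, 11.6 and 11.7 CPM with LYCAT shRNA, against 13.1, 13.8 and 12.8 CPM with control shRNA. The groups overlapped, and the interval of the ratio was 0.737 to 1.22 (log2 -0.08, edgeR adjusted p = 0.822). Per kilobase CCNE1 was 2.33, 2.48 and 2.27 times CCNE2 in the LYCAT shRNA libraries, against 1.41, 1.16 and 1.41 times in the control shRNA libraries. Exons of INTS8 on the opposite strand overlap 44.8% of the exon bases of CCNE2, so the CCNE2 level is uncertain. INTS8 itself had 27.8 ± 2.95 CPM with LYCAT shRNA and 29.2 ± 4.26 CPM with control shRNA (log2 -0.07, edgeR adjusted p = 0.755).

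Ordered by mean CPM per kilobase, the members ran CDKN3, CDKN1A, CCND1, CDKN1B, CCND3, CDKN2D, CDKN2C, CCNE1, CCNE2 and CCND2 with LYCAT shRNA, and CDKN3, CCND1, CDKN1B, CDKN1A, CCND3, CDKN2D, CDKN2C, CCNE1, CCNE2 and CCND2 with control shRNA. This order rests on the exon lengths used, the union over all annotated protein-coding transcripts, and not on the transcripts expressed in these cells. Overlap between libraries does not cover error in those lengths, and the CCNE2 level is uncertain as said above. With LYCAT shRNA no neighbours in this order overlapped between libraries. With control shRNA CCND3 and CDKN2D overlapped, as did CDKN2D and CDKN2C, and the other neighbours did not. CDKN1A thus stood in second place with LYCAT shRNA and below CCND1 and CDKN1B with control shRNA, each of which stood a place lower with LYCAT shRNA; the places of CDKN3 and of the 6 genes from CCND3 down were alike.

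**Figure D4:**
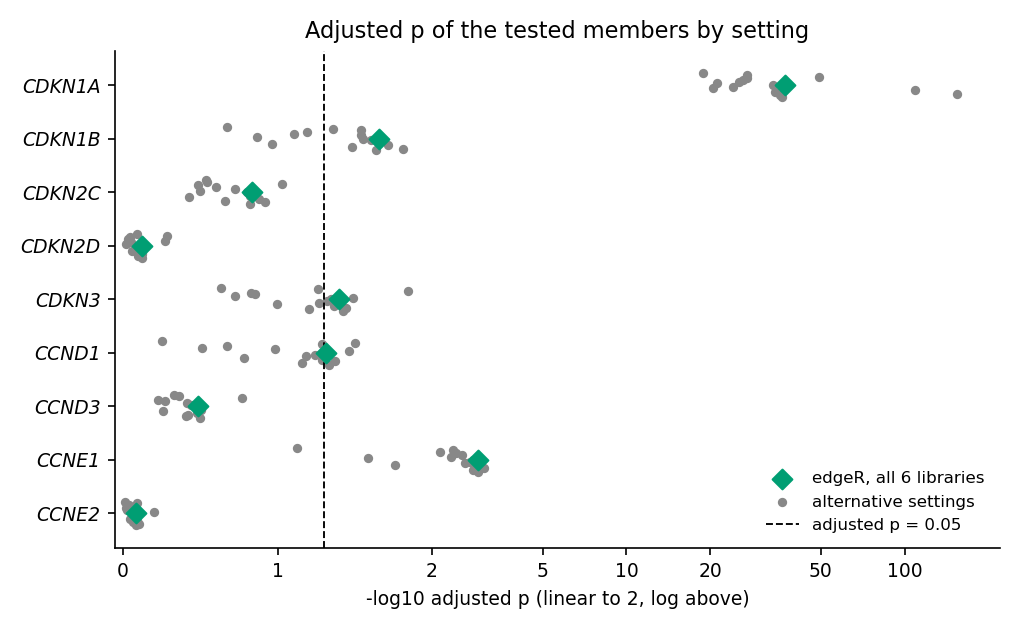
Adjusted p of each tested member under edgeR with all 6 libraries (diamonds) and under the alternative settings (small points), on a -log10 axis that is linear to 2 and logarithmic above, with a dashed line at 0.05. CDKN1A is past the line in every setting, CCNE1 in all but 1, and the points of CDKN1B, CDKN3 and CCND1 lie on both sides.

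The counts over lists of related genes below stand against 9.81% higher and 9.26% lower among all tested genes. The kinases that these proteins bind did not pass. CDK2, CDK4 and CDK6, named after their values were seen, had log2 fold changes of -0.08, 0.09 and 0.05 (edgeR adjusted p = 0.581, 0.3 and 0.61). Of 10 tested genes for CDKs and the enzymes that activate or restrain them, 1 was higher, 1 lower and 8 did not pass. CDC25A, a phosphatase that activates CDK2, rose to 61.1 ± 2.05 CPM with LYCAT shRNA, against 44.8 ± 4.44 CPM with control shRNA (SD, n = 3 each; log2 0.44, edgeR adjusted p = 0.000422). WEE1, a kinase that restrains CDK1 and CDK2, fell to 59.0 ± 0.803 CPM with LYCAT shRNA, against 75.2 ± 11.5 CPM with control shRNA (log2 -0.35, edgeR adjusted p = 0.00386), and did not pass without control shRNA replicate 1 (0.102). Without control shRNA replicate 2, 4 of these genes were lower, and without control shRNA replicate 1, 0 were, with 1100 and 763 of all genes lower.

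Of 18 tested pocket protein, E2F, DP and MuvB genes, 1 was higher, 2 were lower and 15 did not pass, with a median log2 fold change of -0.07. RB1, the retinoblastoma gene, rose to 55.1 ± 2.15 CPM with LYCAT shRNA, against 44.5 ± 5.74 CPM with control shRNA (log2 0.31, edgeR adjusted p = 0.0208). RBL2, its relative p130, fell to 25.9 ± 3.14 CPM with LYCAT shRNA, against 34.2 ± 5.12 CPM with control shRNA (log2 -0.41, edgeR adjusted p = 0.0137). LIN9, a MuvB subunit, fell to 30.0 ± 3.08 CPM with LYCAT shRNA, against 37.5 ± 1.23 CPM with control shRNA (log2 -0.31, edgeR adjusted p = 0.0435). Each of the 3 was lost with DESeq2 (adjusted p = 0.112, 0.107 and 0.184) and without some single libraries. RB1 did not pass without LYCAT shRNA replicate 2 or 3 or control shRNA replicate 2 (edgeR adjusted p = 0.0562, 0.1 and 0.174). RBL2 did not pass without LYCAT shRNA replicate 1 or 3 or control shRNA replicate 3 (edgeR adjusted p = 0.135, 0.0645 and 0.138). LIN9 did not pass without any one library other than LYCAT shRNA replicate 3 (edgeR adjusted p = 0.0639 to 0.163). Without control libraries 1 and 2 together, RB1 (edgeR adjusted p = 0.414) and LIN9 (0.162) did not pass.

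Of 24 tested genes of S phase entry that E2F factors are known to induce, 5 were higher, 0 lower and 19 did not pass. Their median was 0.017. At an unadjusted edgeR p under 0.05, 7 were higher and 1 lower, against 3415 of all 11097 tested genes in either direction. The 5 were GINS1, RRM2, GINS2 and, named after their values were seen, SLBP and UHRF1. With library totals in place of TMM factors 4 of the list were higher and 1 lower. Without control shRNA replicate 1, 3 were higher and 1 lower. Of all genes, 1127 and 763 were lower in these fits, in that order. Of all 11097 tested genes, 1089 were higher and 8980 did not pass. The number higher over all genes was 635 with DESeq2 and 742 to 865 without any one LYCAT shRNA library. It was 844 without control shRNA replicate 1 and 1128 without control shRNA replicate 2. GINS1, a subunit of the replicative helicase, rose 1.16-fold to 168 ± 0.931 CPM with LYCAT shRNA, against 145 ± 3.98 CPM with control shRNA (edgeR adjusted p = 0.00825). RRM2, the small subunit of ribonucleotide reductase, rose 1.12-fold to 457 ± 31.1 CPM with LYCAT shRNA, against 407 ± 11.9 CPM with control shRNA (edgeR adjusted p = 0.0108; 0.192 without LYCAT shRNA replicate 3). The count fell to 2 with DESeq2, to 2 without any one LYCAT shRNA library, to 3 without control shRNA replicate 1 or 2, and to 0 without control libraries 1 and 2. Without that pair of libraries the edgeR adjusted p was 0.145 for GINS1 and 0.0524 for RRM2.

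Of 16 tested ubiquitin ligase genes that act on these regulators, 0 were higher, 2 lower and 14 did not pass. By unadjusted edgeR p under 0.05 these counts were 0 and 2 as well, against 3415 of all 11097 tested genes in either direction. SKP2, the F-box protein that directs p27 to degradation, fell to 146 ± 4.36 CPM with LYCAT shRNA, against 167 ± 13.9 CPM with control shRNA (log2 -0.19, edgeR adjusted p = 0.0313). Its cofactor CKS1B fell to 942 ± 21.4 CPM with LYCAT shRNA, against 1052 ± 51.1 CPM with control shRNA (log2 -0.16, edgeR adjusted p = 0.00527). CKS1B did not pass without LYCAT shRNA replicate 3 (edgeR adjusted p = 0.0634) or control shRNA replicate 3 (0.0899), and SKP2 passed without control shRNA replicate 2 only (0.0738 to 0.223 without the others). SKP2 was also lost with DESeq2 (adjusted p = 0.129), with limma-voom (adjusted p = 0.0508) and without control libraries 1 and 2 together (edgeR adjusted p = 0.0725).

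Among 16 other tested cyclin genes 2 were higher, 2 lower and 12 did not pass. CCNG1, an atypical cyclin, rose 1.27-fold to 126 ± 8.81 CPM with LYCAT shRNA, against 98.5 ± 4.11 CPM with control shRNA (edgeR adjusted p = 0.000164). CCNG2, its relative, linked to cell cycle arrest, fell 1.79-fold to 13.3 ± 3.18 CPM with LYCAT shRNA, against 24.5 ± 6.6 CPM with control shRNA (edgeR adjusted p = 0.000567). CCNB1, the mitotic cyclin B, rose 1.13-fold (edgeR adjusted p = 0.00694) and did not pass without control shRNA replicate 1 (0.0693). CCNL2, which acts in splicing, fell 1.16-fold (edgeR adjusted p = 0.0382) and was lost with the replicate block (0.053) and without any one library other than control shRNA replicate 1 (0.0672 to 0.264), with DESeq2 (adjusted p = 0.162), with limma-voom (adjusted p = 0.0573) and without control libraries 1 and 2 together (edgeR adjusted p = 0.236).

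Of 17 transcription factor genes with a textbook link to CDKN1A, CDKN1B or CCND1, 4 were higher, 1 lower and 12 did not pass. FOSL1, an AP-1 subunit, rose 3.14-fold to 49.5 ± 1.22 CPM with LYCAT shRNA, against 15.7 ± 0.187 CPM with control shRNA (edgeR adjusted p = 3.86e-19). KLF6, a zinc finger factor that can induce CDKN1A, and JUN, a partner of FOSL1 in AP-1, rose by 0.67 and 0.58 on the log2 scale (edgeR adjusted p = 1.92e-06 and 5.72e-06). SP1, which binds GC boxes, fell 1.29-fold to 44.5 ± 2.33 CPM with LYCAT shRNA, against 56.9 ± 7.86 CPM with control shRNA (edgeR adjusted p = 0.00568). It did not pass with DESeq2 (adjusted p = 0.0553), without LYCAT shRNA replicate 3 (edgeR adjusted p = 0.0527), without control shRNA replicate 1 (0.112) or without control libraries 1 and 2 (0.585). Without control shRNA replicate 2, 3 of these genes were lower, without LYCAT shRNA replicate 1 or 2, 2 were, and without LYCAT shRNA replicate 3 or control shRNA replicate 1, 0 were. Of all genes, 1100, 706, 802, 700 and 763 were lower in these fits, in that order.

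**Figure D5:**
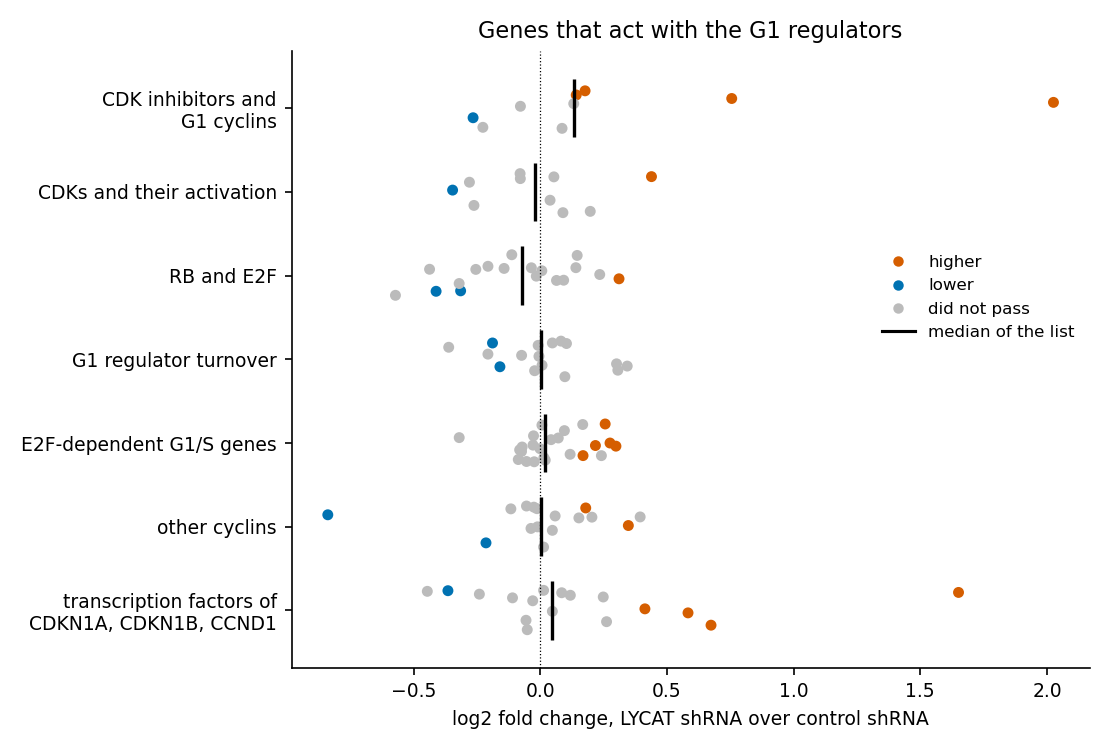
log2 fold change of single genes by list, LYCAT shRNA over control shRNA (x axis; each point is a tested gene, coloured by its call at an adjusted p under 0.05; the vertical bar is the list's median). The medians of the 7 lists drawn lie between -0.07 and 0.13, and of the genes drawn CDKN1A at 2.03 and FOSL1 at 1.65 lie furthest to the right; marker lists, other CDK inhibitors and 1 further list are not drawn.

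Across the 6 libraries, the genes whose log2 CPM followed CDKN1A most closely among the 9950 genes averaging 5 CPM or more were FOSL1, LDB2, a LIM domain-binding cofactor, and TFPI2, a secreted protease inhibitor, each with a Pearson correlation of 1.00 when rounded to 2 decimals. With 2 groups of 3 libraries such a value mostly follows the difference between the groups, and it is a description of these 6 libraries. LDB2 stood at 100.3 ± 0.482 CPM with LYCAT shRNA and 23.1 ± 1.63 CPM with control shRNA, and TFPI2 at 3813 ± 83.6 CPM with LYCAT shRNA and 1459 ± 27.2 CPM with control shRNA (SD, n = 3 each).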

How the data were processed

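The authors deposited 1 table of raw counts per gene with gene symbols for all 6 libraries. The tools named, per the submitters' processing notes, are featureCounts 1.5.1, Bowtie2, BWA 0.7.15 and bcl2fastq 2.17, and the builds are hg19 and mm10; the aligner and build behind the table, and any use of strand, are not given in the sources used here. Columns were mapped by name, that of the LYCAT shRNA group reading as a misspelling of LYCAT.

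The members and all lists were chosen with earlier results of these data known. The filter was filterByExpr of edgeR 4.0.16, run in R 4.3.3 with the group, and kept 11097 of 23368 genes with 99.8% of the counts. Scaling used TMM factors, and genes were tested with the quasi-likelihood F test (robust=TRUE, group as the only term), with Benjamini-Hochberg adjustment over all tested genes. The SE is the size of the log2 fold change divided by the square root of F. The test designed for CCND2 could not be made after this filter, so its ratio of mean CPM is given. DESeq2 1.42.0, limma-voom (limma 3.58.1) and the settings listed in the closing section were alternatives. The fits were tested on simulated counts. Named genes are LCLAT1, all members, the 3 genes most correlated with CDKN1A and, from each list, up to 4 called genes taken by adjusted p and including the top gene of either direction, or the 2 most abundant where none was called; not every gene the rule allows is printed, and 1 list, in which most genes were called, is not reported here. Promoter windows are from RefSeq, matched by symbol, and exon lengths and overlaps from GENCODE v29 (GRCh38).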

Additional observations from a re-analysis of the deposited data

How the results depend on the processing

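CDKN1A stayed higher and called in all 15 alternatives (log2 2.01 to 2.07), as LCLAT1 stayed lower (log2 -1.60 to -1.40). DESeq2 called 635 genes higher and 558 lower, and 2 members higher and 0 lower, with log2 values of -0.26 for CDKN1B, 0.14 for CDKN3 and 0.18 for CCND1, none of them called. With library totals only, 966 genes were higher and 1127 lower, 2 members were higher, and CDKN3 (0.13) and CCND1 (0.16) were not called. Limma-voom called 1026 genes higher and 959 lower, and 2 members higher, without CDKN3 (0.14) and CCND1 (0.18). CCND1 was also not called with a mean of at least 5 CPM (0.17) or robust=FALSE (0.18). With no filter on low counts 2 members were lower, CCND2 being the added one, as were 1032 of all 16183 genes tested there. The library numbers did not pair the libraries, since deviations of same-numbered libraries from their group means correlated at 0.0051, -0.064 and -0.048; the replicate block called 1044 genes higher and 1002 lower and lost CCND1 (0.18).

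With 1 library left out, 2 to 4 members were higher and 0 to 2 lower, and of all genes 742 to 1128 were higher and 700 to 1100 lower. Log2 values were then -0.30 to -0.23 for CDKN1B, 0.12 to 0.19 for CDKN3 and 0.12 to 0.23 for CCND1. Without control libraries 1 and 2, 573 genes were higher and 556 lower, 1 member was higher and 0 lower; CDKN1B (-0.24), CDKN3 (0.12), CCND1 (0.094) and CCNE1 (0.70) were not called, and CDKN2D (-0.11) and CCND2 (0.51) changed sign, CDKN2D not being called and CCND2 having no test there. The lone control library is assumed there to vary like the others. The causes were not tested. CCND2 had the fewest counts of the members, 9 in all LYCAT shRNA libraries and 55 in all control shRNA libraries. The latter were 29, 24 and 2 counts in control shRNA libraries 1 to 3.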
